A study of Mus musculus with 23 samples.

Results

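The nuclear-encoded subunits of the respiratory chain were described in sorted cells of Met1-iRFP mammary tumours. The members are all genes whose whole symbol in the count table has the form of a complex I to V subunit name (Nduf, Sdh, Uqcr, Cox or Atp5 followed by the letters or numbers of a subunit), which gave 80 of 48397 symbols. They comprise 36 genes of complex I, 4 of complex II, 8 of complex III, 15 of complex IV and 17 of complex V. The symbol pattern leaves out Cyc1, Cox4i1 and Ndufab1, which were followed in a separate list, and it takes in Atp5s and Atp5sl, which RefSeq now lists under assembly factor names (Dmac2l and Dmac2). Ndufa4, counted here with complex I by its name, is today regarded as a subunit of complex IV.

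The respiratory chain of the inner mitochondrial membrane oxidises NADH at complex I and succinate at complex II, passes the electrons through ubiquinone, complex III and cytochrome c to oxygen at complex IV, and uses the proton gradient to make ATP at complex V. All complexes except complex II join nuclear-encoded subunits to subunits encoded by mitochondrial DNA. Promoters of many nuclear-encoded subunits are known to bind the factors NRF1, GABP of the ETS family and YY1.

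Met-1 cells come from a mammary tumour of a mouse carrying the polyoma middle T oncogene, and their iRFP, a protein fluorescing in the near infrared, separates them from host cells in a sort. All mice were of the FVB strain and carried such tumours. The 4 groups were iRFP-positive cancer cells of exercised mice (n = 7) and of sedentary mice (n = 8), and iRFP-negative cells of the tumour microenvironment (TME) of exercised mice (n = 4) and of sedentary mice (n = 4). The labels give neither age nor the form or length of exercise. They also do not say whether libraries of a group come from different animals, and the p-values therefore measure a spread between libraries that may be technical in part.

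Total counts per library ranged between 15924340 and 37388479. Leukocyte markers separated the sorts, with a summed level of 116 to 288 CPM (CPM are counts scaled to TMM-normalised library size) in exercised and 58.8 to 144 in sedentary cancer cells, against 1081 to 6102 in exercised and 1420 to 1746 in sedentary TME cells. Endothelial markers did so too, at 7.08 to 15.5 CPM in cancer cells and 42.3 to 451 in TME cells. Fibroblast markers (2238 to 3483 CPM in cancer cells, 2484 to 4478 in TME cells) and epithelial markers (282 to 550 in cancer cells, 231 to 534 in TME cells) overlapped between the sorts in their summed levels. By gene, edgeR called 6 of 10 fibroblast markers lower and 2 higher in cancer than in TME cells of exercised mice (median -1.86), and 5 lower and 0 higher in sedentary mice (median -1.65). Of 6 tested epithelial markers 1 was lower and 0 higher in each treatment. Markers of skeletal muscle stayed at 1.68 to 10.6 CPM in every library. In sedentary TME libraries 4 and 6, genes of mitochondrial DNA took 42.2% and 14.5% of all counts, against 1.86% to 3.90% over the cancer libraries and 2.61% to 8.63% over the exercised TME libraries.

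Of the 80 members, 75 passed the low-count filter in the fit of all 23 libraries and in that of TME cells, and 74 in that of cancer cells, where Ndufs5 was left out. The other 5 were Cox6a2 and Cox8b, the heart and skeletal muscle isoforms, and Cox6b2, Cox7b2 and Cox8c, known as testis isoforms. They held 43, 23, 54, 19 and 0 counts over all libraries. On the TMM scale 3 counts in 1 library correspond to 0.077 to 0.28 CPM, with the highest value in sedentary TME library 4, and levels below this were not detectable in that library.

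The members' promoters were set side by side to see which sequence features they share. RefSeq windows on GRCm38.p6, running from 250 bases before to 50 after a gene's start, were found for 68 members (74 windows). Exact matches on either strand to the NRF1 motif (GCGCA, any base, then GCGC) stood in 24.3% of member windows, against 8.85% of the windows of all genes tested and 4.60% of all 32851 windows. For the ETS motif CCGGAAG the shares were 21.6% of member windows, 15.6% and 8.86%, and for the YY1 motif AAGATGGC 16.2%, 3.99% and 2.75%. TATAAA was found in 10.8% of member windows, 7.82% of those of tested genes and 13.6% of all windows. A match describes the letters and is no evidence of a bound site, and the mice were of another strain than the reference genome.

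The windows printed are those of members with 1 RefSeq window that differed between cancer and TME cells in both treatments, with at least 2 of the NRF1, ETS and YY1 motifs for members lower in cancer cells and at least 1 for members higher. Capitals mark the motif matches, and each sequence reads 5′ to 3′ along the gene's own strand. Atp5k, Cox6a1 and Ndufs6 were lower in cancer cells and Atp5f1 was higher. Their windows lie at chr5:108434350-108434649 (minus strand), chr5:115348909-115349208 (minus), chr13:73328433-73328732 (minus) and chr3:105959214-105959513 (minus), in that order.
Atp5k: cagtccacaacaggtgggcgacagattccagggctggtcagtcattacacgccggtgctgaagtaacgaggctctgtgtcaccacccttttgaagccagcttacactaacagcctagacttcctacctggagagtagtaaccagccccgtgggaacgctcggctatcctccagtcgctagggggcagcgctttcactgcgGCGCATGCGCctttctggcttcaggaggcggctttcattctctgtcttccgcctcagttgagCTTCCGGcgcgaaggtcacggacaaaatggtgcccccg
Cox6a1: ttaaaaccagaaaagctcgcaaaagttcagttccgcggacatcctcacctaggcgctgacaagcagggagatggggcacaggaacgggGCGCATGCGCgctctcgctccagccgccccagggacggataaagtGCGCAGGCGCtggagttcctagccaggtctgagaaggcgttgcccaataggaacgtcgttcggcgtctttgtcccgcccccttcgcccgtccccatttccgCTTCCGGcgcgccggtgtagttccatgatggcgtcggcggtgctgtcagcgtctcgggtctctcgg
Ndufs6: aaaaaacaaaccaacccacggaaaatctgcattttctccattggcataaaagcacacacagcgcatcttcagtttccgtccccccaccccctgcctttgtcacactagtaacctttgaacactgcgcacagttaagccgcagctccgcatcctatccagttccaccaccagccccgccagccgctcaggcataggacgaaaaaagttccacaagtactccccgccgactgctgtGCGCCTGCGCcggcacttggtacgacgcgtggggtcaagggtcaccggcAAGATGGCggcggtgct
Atp5f1: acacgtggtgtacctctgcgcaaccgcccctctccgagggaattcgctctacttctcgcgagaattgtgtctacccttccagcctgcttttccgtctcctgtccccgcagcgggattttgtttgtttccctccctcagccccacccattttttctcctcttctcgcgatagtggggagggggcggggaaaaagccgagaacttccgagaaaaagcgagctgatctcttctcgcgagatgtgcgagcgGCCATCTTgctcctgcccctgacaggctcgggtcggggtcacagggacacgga
Cox6a1 holds 2 NRF1 matches and 1 ETS match, Atp5k holds 1 of each, Ndufs6 holds an NRF1 and a YY1 match, and Atp5f1 a YY1 match. Among members lower in cancer cells in both treatments the NRF1 motif was found in 22.2% of 18 windows, the ETS motif in 27.8% and the YY1 motif in 27.8%. Among the 4 windows of members higher in both, 1 held the NRF1, 1 the YY1 and 0 the ETS motif.

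The members together made up a small part of each library, and exercised cancer cells held the lowest mean share. With counts of mitochondrial DNA removed, members took 0.689% ± 0.037 of counts in exercised cancer cells and 0.759% ± 0.052 in sedentary cancer cells (SD, n = 7 and 8). The share was 0.775% ± 0.078 in exercised TME cells and 0.878% ± 0.064 in sedentary TME cells (n = 4 each). Exercised and sedentary libraries overlapped in both sorts, at 0.631% to 0.748% and 0.667% to 0.838% in cancer cells and at 0.682% to 0.841% and 0.810% to 0.951% in TME cells.

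Per kilobase of exon, members of 3 complexes led in every group. Ndufa2, an accessory subunit of complex I, ranked first with 332 CPM per kilobase in exercised cancer cells, 407 in sedentary cancer cells, 487 in exercised TME cells and 621 in sedentary TME cells. Cox6a1, the ubiquitous isoform of a complex IV subunit, and Atp5o, the OSCP subunit of the peripheral stalk of ATP synthase, were among the first 4 in each group, together with Atp5g3. The value and rank of Atp5o are uncertain. The exon length used, 530 bases, is that of an annotated model at chr16:91684398-91926982 on the minus strand. The RefSeq promoter window of Atp5o, at chr16:91931581-91931880, lies outside that model. Of that model's exon bases 54.2% are shared with Donson, and the strand setting of the counting is not given in the sources used here.

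Among the complexes, complex II had the narrowest range of group means. The mean log2 CPM of its 4 members was 6.86 ± 0.07 in exercised cancer cells, 6.80 ± 0.13 in sedentary cancer cells, 7.0 ± 0.18 in exercised TME cells and 7.0 ± 0.14 in sedentary TME cells. Complex I stood at 4.90 ± 0.09, 5.02 ± 0.22, 5.25 ± 0.23 and 5.48 ± 0.18 in the same groups. Complex III had 5.85 ± 0.07, 5.88 ± 0.16, 5.98 ± 0.12 and 6.10 ± 0.13, in the same order.

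**Figure D1:**
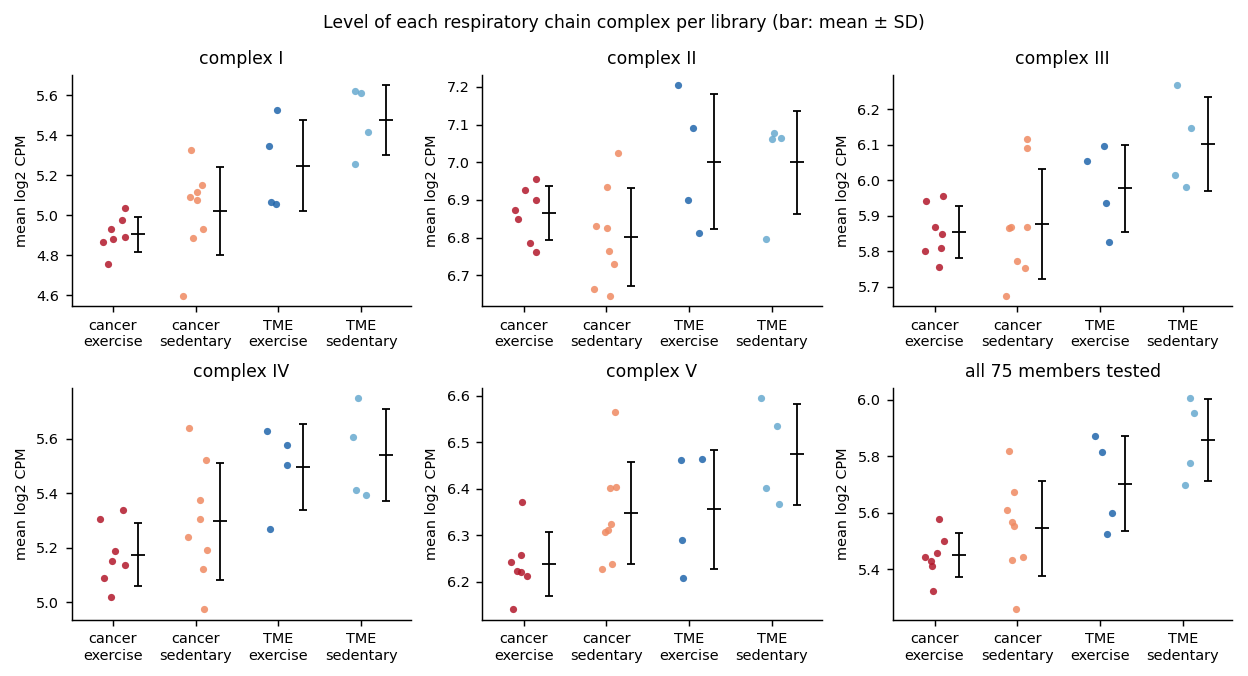
Mean log2 CPM of the tested members of each complex and of all 75 members, 1 point per library in the 4 groups, with a bar for the group mean ± SD. Exercised cancer cells have the lowest mean of complexes I, III, IV and V, and the groups of each sort overlap.

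Complexes IV and V kept the same order of group means. Complex IV was at 5.18 ± 0.11 in exercised cancer cells, 5.30 ± 0.21 in sedentary cancer cells, 5.49 ± 0.16 in exercised TME cells and 5.54 ± 0.17 in sedentary TME cells. Its medians in TME cells had the other order, at 5.54 in exercised and 5.51 in sedentary cells. The highest sedentary TME value was 5.75, that of library 4. Complex V was at 6.24 ± 0.07, 6.35 ± 0.11, 6.36 ± 0.13 and 6.47 ± 0.11. These means are not divided by transcript length and compare groups within a complex, not complexes with each other.

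Exercise against sedentary in cancer cells gave no call by edgeR. edgeR's quasi-likelihood test, adjusted after Benjamini and Hochberg and read at 0.05, called 0 of 74 members and 0 of 15096 genes (0.0%). Most members nevertheless lay on the lower side: 58 of 74 had a log2 fold change below 0, with a median of -0.15, while over all genes tested 52.6% were below 0 and the median was -0.01. Over all genes Spearman's rho of the fold change was 0.23 with exon length and -0.15 with GC content, and over members 0.18 and -0.05. The median exon length was 1696.5 bp for members and 3689 bp for all genes in the fit of all libraries. Genes of like length were not compared with the members. At an unadjusted p under 0.05, 17 members were lower and 1 was higher, beside 6.67% of all genes on the lower and 5.92% on the higher side (1901 genes). DESeq2 called 146 genes, limma voom 197 and edgeR with no filter 28. In complex II 3 of 4 members lay above 0 with a median of 0.04, beside medians of -0.16 for complex I (30 of 35 below 0), -0.12 for complex III (5 of 8), -0.16 for complex IV (9 of 10) and -0.11 for complex V (13 of 17).

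Cox7c, a small structural subunit of complex IV (chr13:86044816-86046904, GRCm38), came closest to the threshold. Cox7c had 56.8 to 63.8 CPM with a median of 58.4 in exercised cancer cells, against 57.5 to 107 CPM with a median of 83.8 in sedentary cancer cells. All 7 exercised libraries lay below the sedentary mean, and the groups overlapped through sedentary library 5. The log2 fold change was -0.48 ± 0.10 (SE) with an adjusted p of 0.0822 by edgeR, and the call was made by DESeq2 (adjusted p = 0.0109), by limma voom (0.0256) and by edgeR with no filter (0.0339).

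Complex I was represented by Ndufb2, an accessory subunit of the membrane arm. Its level was 16.7 to 26.7 CPM with a median of 21.7 in exercised cancer cells and 23.5 to 42.0 with a median of 28.9 in sedentary cancer cells, and the groups overlapped. The edgeR fold change was -0.52 ± 0.12 (adjusted p = 0.121), and for the accessory subunit Ndufa3 it was -0.39 ± 0.12 (adjusted p = 0.208). Of ATP synthase, Atp5j2 (subunit f) differed by -0.45 ± 0.12 (edgeR adjusted p = 0.132), with 53.2 to 78.8 CPM (median 70.1) in exercised and 60.7 to 112 (median 89.2) in sedentary cancer cells. Subunit e, Atp5k, differed by -0.38 ± 0.14 (adjusted p = 0.265). DESeq2 called Ndufb2 (adjusted p = 0.0206) and Atp5j2 (0.0356) in addition to Cox7c, so that it called 3 members lower beside 0.519% of the 15612 genes to which it gave an adjusted p.

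In complex III the 2 members with the smallest p lay on opposite sides of 0 and did not pass. Uqcrh, the hinge protein, differed by -0.36 ± 0.10 (edgeR adjusted p = 0.156), at 72.8 to 96.8 CPM (median 86.9) in exercised and 93.4 to 137 (median 101) in sedentary cancer cells. Uqcrc1, a core subunit, differed by 0.27 ± 0.10 (adjusted p = 0.282), at 107 to 166 CPM (median 127) and 87.5 to 129 (median 109) in the same groups. Cox6a1 differed by -0.25 ± 0.12 (adjusted p = 0.377). Of complex II, the flavoprotein Sdha had 0.11 ± 0.07 (adjusted p = 0.524) and the membrane anchor Sdhd -0.10 ± 0.07 (adjusted p = 0.610).

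No member had groups without overlap in cancer cells, as 0.053% of all genes did on the lower and 0.298% on the higher side. Of the leukocyte markers in the same libraries, 10 of 10 lay above 0 with a median of 0.54, none of them at 0 counts in either group, with summed levels of 116 to 288 CPM in exercised and 58.8 to 144 in sedentary cancer cells. Epithelial markers lay below 0 in 6 of 6 tested with a median of -0.33, 2 of them at an unadjusted p under 0.05, with summed levels of 282 to 406 CPM in exercised and 326 to 550 in sedentary cancer cells. Endothelial markers lay below 0 in 4 of 5 tested with a median of -0.32, at 7.08 to 12.2 CPM in exercised and 11.3 to 15.5 in sedentary cancer cells. edgeR called none of these markers, while limma voom called Cdh5 and Krt18 lower and DESeq2 Cdh5. Fibroblast markers lay below 0 in 7 of 10 with a median of -0.19. The part of these markers in the members' values was not tested. In bulk RNA, fewer cells of a type and less RNA per cell cannot be told apart.

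**Figure D2:**
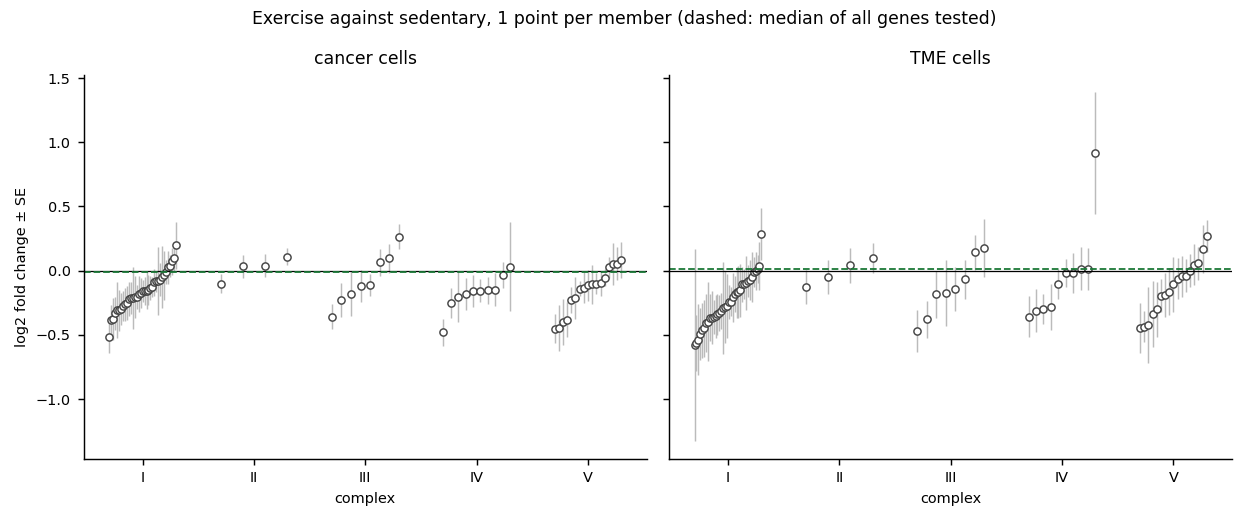
Log2 fold change of exercise against sedentary (± SE) of each tested member by complex, in cancer cells and in TME cells, with a dashed line at the median of all genes tested. Open points mark members that edgeR did not call, which here are all of them, and 58 of 74 members in cancer cells and 61 of 75 in TME cells lie below 0.

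Exercise against sedentary in TME cells gave no call by edgeR either, which called 0 of 75 members and 0 of 16273 genes (0.0%), limma voom called 0 genes, DESeq2 40 genes and edgeR with no filter 6, with 0 members among them. Of the 75 members 61 lay below 0, with a median of -0.17, while 48.7% of all genes did, with a median of 0.01. The members' median was -0.25 without sedentary library 9 and -0.088 without sedentary library 4, the ends of its range as single libraries were left out. Spearman's rho of the fold change with exon length was 0.14 over all genes and 0.22 over members. With GC content it was -0.25 and -0.20, and genes of like length were not compared here either. At an unadjusted p under 0.05, 11 members were lower and 0 higher, beside 3.51% of all genes on the lower and 4.93% on the higher side. By complex, 33 of 36 members of complex I, 2 of 4 of complex II, 6 of 8 of complex III, 7 of 10 of complex IV and 13 of 17 of complex V lay below 0.

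For 4 members, 5.33% of those tested, the exercised and sedentary TME libraries did not overlap, each with the exercised libraries lower, while 1.78% of all genes showed this on the lower side and 1.96% on the higher. Atp5o had 163, 181, 136 and 150 CPM in exercised TME libraries 7, 8, 9 and 10, against 202, 188, 241 and 213 CPM in sedentary libraries 4, 6, 9 and 10. Its fold change was -0.44 ± 0.12 (edgeR adjusted p = 0.586). Cox5b, a zinc-binding subunit of complex IV, had 34.0, 31.1, 29.2 and 28.6 CPM in the exercised and 36.0, 35.5, 38.9 and 38.8 CPM in the sedentary libraries, in the same order.

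The fold change of Cox5b was -0.30 ± 0.12 (edgeR adjusted p = 0.586). The other two were the complex I accessory subunits Ndufa13 and Ndufa8. Ndufa13, also known as GRIM-19, had 43.5 to 85.3 CPM in exercised and 85.5 to 95.4 CPM in sedentary TME cells, and shares 30.0% of its exon bases with Tssk6. Ndufa8 had 52.8 to 66.0 CPM in exercised and 66.0 to 75.03 CPM in sedentary TME cells, so its groups separated by less than 1 CPM.

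Atp5o, Cox5b and Ndufa13 had an unadjusted edgeR p under 0.05, and Ndufa8 one of 0.0513. For the remaining members with an unadjusted p under 0.05 the groups overlapped. Ndufv1, the NADH-binding core subunit of complex I, had 51.9, 45.2, 40.0 and 41.0 CPM in exercised and 64.0, 49.2, 58.4 and 55.1 CPM in sedentary TME cells (-0.36 ± 0.13, edgeR adjusted p = 0.586). The accessory subunit Ndufb10 differed by -0.57 ± 0.22, Uqcrh by -0.47 ± 0.16, Uqcr11 by -0.38 ± 0.14, Cox6a1 by -0.36 ± 0.16 and the ring subunit Atp5g2 by -0.44 ± 0.19, each with an edgeR adjusted p of 0.586. Sdha differed by 0.10 ± 0.12 (adjusted p = 0.813), with its sign turned without sedentary libraries 4 and 6 and under the uncentred length and GC offset described below, and Sdhd by -0.13 ± 0.13 (adjusted p = 0.782).

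Fold changes of cell markers leaned between these groups as well. None of the leukocyte, endothelial, epithelial and fibroblast markers was called by edgeR, DESeq2, limma voom or edgeR with no filter. Leukocyte markers were above 0 in 10 of 10 with a median of 1.14. They summed to 1081, 6102, 5698 and 1583 CPM in exercised libraries 7, 8, 9 and 10, against 1420 to 1746 in sedentary TME cells. Endothelial markers were below 0 in 10 of 10 with a median of -1.18, at 42.3 to 124 CPM in exercised and 92.5 to 451 in sedentary TME cells. The 451 CPM were those of sedentary library 4, and the next highest, library 6, had 116. No gene of either list was at 0 counts in a group. Epithelial markers were below 0 in 5 of 6 tested with a median of -0.41, and fibroblast markers in 6 of 10 with a median of -0.27. Their part in the members' values was not tested. The 13 mRNAs of mitochondrial DNA were below 0 in 13 of 13 with a median of -2.20, at summed levels of 20856 to 66535 CPM in exercised and 25296 to 571540 in sedentary TME cells, where library 4 was highest.

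**Figure D3:**
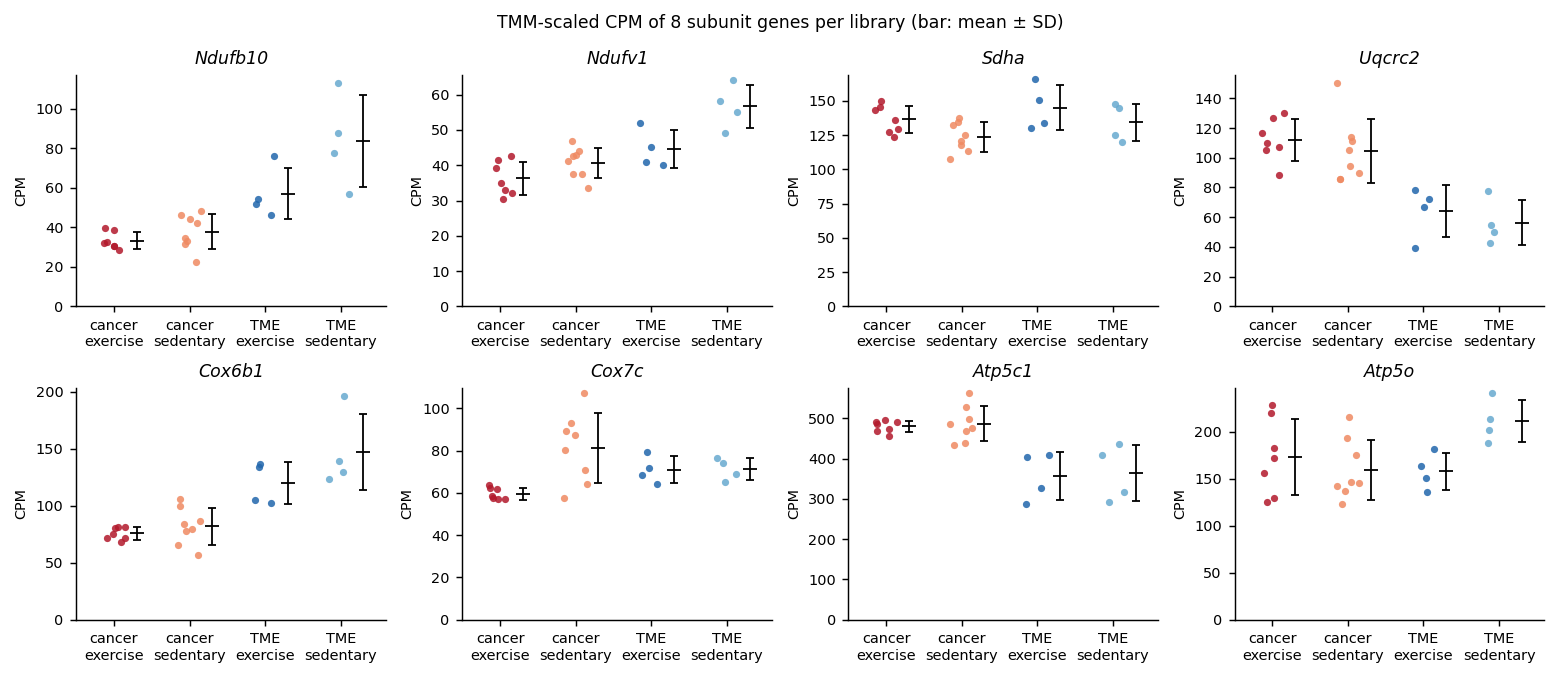
TMM-scaled CPM of 8 subunit genes in each library of the 4 groups, with a bar for the mean ± SD. Ndufb10 and Cox6b1 are lower and Uqcrc2 and Atp5c1 higher in the cancer sort, Cox7c is low and narrow in exercised cancer cells, and Atp5o separates exercised from sedentary TME cells.

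The exercise effects of both sorts were not shown to differ. The interaction contrast over all 23 libraries (effect in cancer cells minus effect in TME cells) called 0 of 75 members and 0 of 17503 genes (0.0%) by edgeR. At an unadjusted p under 0.05 there were 1 member above and 2 below 0, and 1316 genes in all. DESeq2 and edgeR with no filter called 0 genes, and limma voom called 40 genes with 0 members. The median over members was 0.03, with 44 of 75 above 0, and over all genes it was -0.01. With single libraries left out the members' median lay between -0.065 (without exercised TME library 10) and 0.081 (without exercised TME library 7), so its sign was not stable.

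Among members, Cox7c had the smallest p, with a difference of -0.44 ± 0.17 (edgeR adjusted p = 0.577): it averaged 59.7 ± 2.85 CPM in exercised and 81.2 ± 16.4 in sedentary cancer cells, and 70.9 ± 6.43 in exercised and 71.1 ± 5.17 in sedentary TME cells. Atp5o differed by 0.54 ± 0.22 (adjusted p = 0.591), at 173 ± 40.3 and 159 ± 31.8 CPM in exercised and sedentary cancer cells and 158 ± 19.3 and 211 ± 22.2 in exercised and sedentary TME cells. With replicate numbers as a block together with a length and GC offset, Atp5o alone passed (1.17 ± 0.18, edgeR adjusted p = 0.0251). That offset used the uncertain exon length of Atp5o given above. Ndufa6 differed by -0.65 ± 0.27, Ndufa12 by 0.41 ± 0.23, Uqcrc1 by 0.36 ± 0.18 (0.14 to 0.42 with 1 library left out), the Rieske protein Uqcrfs1 by -0.24 ± 0.16, Cox7a1 by -0.86 ± 0.58, the ATP synthase epsilon subunit Atp5e by -0.36 ± 0.24, Sdhc by 0.11 ± 0.16 and Sdhd by 0.04 ± 0.14, with edgeR adjusted p of 0.604 to 0.963 (the signs of Sdhc and Sdhd turned under other settings).

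Cancer and TME cells differed in many members, mostly with lower levels in cancer cells. In exercised mice 25 of 75 members (33.3%) were lower and 4 (5.33%) higher in cancer cells by edgeR, beside 17.3% and 19.5% of all 17503 genes. In sedentary mice 34 members (45.3%) were lower and 6 (8.0%) higher, beside 19.8% and 21.0% of all genes. The median over members was -0.25 in exercised and -0.33 in sedentary mice, and over all genes -0.0013 and 0.01. Of the members lower in cancer cells 20 were called in both treatments, which is 80.0% of those called in exercised and 58.8% of those called in sedentary mice. Among all genes called lower the same shares were 76.1% and 66.8%, and these comparisons rest on separate libraries in 1 fit. Markers of other cell types differed in the same direction: in both treatments all 10 leukocyte and all 10 endothelial markers were lower in cancer cells, with medians of -4.37 and -3.84 in exercised and -3.86 and -4.19 in sedentary mice. Their part in the members' values was not tested.

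The counts of calls changed with an offset for length and GC content, with a block of replicate numbers and with single libraries. With an offset for gene length and GC content, 14 members were lower and 6 higher in exercised mice (16.2% and 16.2% of all genes), and 21 lower and 5 higher in sedentary mice (16.6% and 16.8%). When that offset also kept its own overall level in each library, which moved the median of all genes to 0.20 in exercised and 0.17 in sedentary mice, 5 were lower and 22 higher in exercised mice (11.9% and 30.6% of all genes) and 16 lower and 15 higher in sedentary mice (12.4% and 28.1%). With replicate numbers as a block, 11 were lower and 3 higher in exercised mice (8.72% and 11.4%), and 6 lower and 6 higher with block and offset together (8.15% and 7.38%). Only numbers 7, 8 and 10, held by both exercised sorts, then enter the exercised comparison. The smaller number of libraries and the block itself cannot be told apart. Without sedentary TME libraries 4 and 6, 22 were lower and 4 higher in sedentary mice (13.1% and 10.1%).

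**Figure D4:**
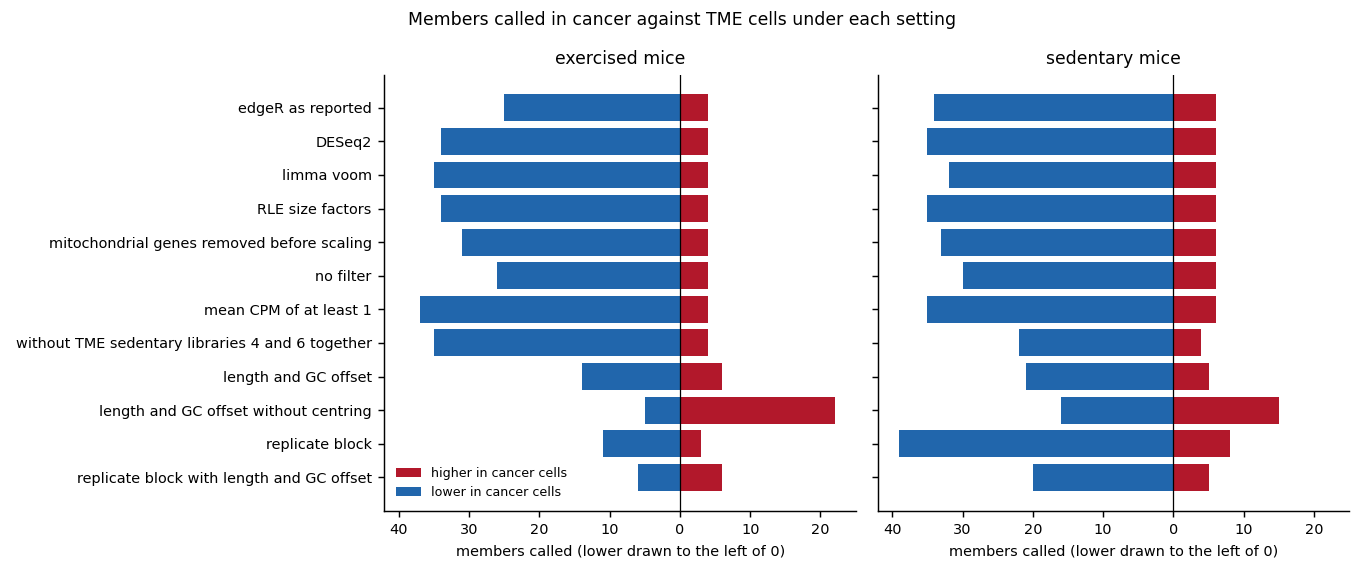
Members called lower (drawn to the left) and higher (to the right) in cancer against TME cells, in exercised and sedentary mice, under each setting of the analysis. Calls of lower members outnumber those of higher ones except with an uncentred length and GC offset in exercised mice (5 and 22) and with block and offset together in exercised mice (6 and 6).

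Members lower in cancer cells had a smaller exon length, counted over the merged exons of all transcripts of a gene, than those higher. The higher members were 4 in exercised and 6 in sedentary mice, with all 4 among the 6. The median exon length of the lower members was 1154.5 bp in exercised and 1227 bp in sedentary mice. It was 2295.5 bp for the members higher in either treatment, 1696.5 bp for all members tested and 3689 bp for all genes tested. Across members, Spearman's rho between fold change and exon length was 0.35 in exercised and 0.32 in sedentary mice, and across all genes 0.26 and 0.20. For GC content it was -0.27 and -0.32 across members and -0.29 and -0.37 across all genes. Genes of a library share its depth and base composition, so these values are descriptions.

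Complex I, the largest complex with 36 of the 75 tested members, held most of the lower members. Of these 36, 14 were lower in exercised and 21 in sedentary mice, beside 17.3% and 19.8% of all genes. Ndufb10, an accessory subunit of the membrane arm (chr17:24722060-24724478), had 28.6 to 39.7 CPM with a median of 32.1 in exercised cancer cells, against 75.9, 51.6, 46.1 and 54.5 CPM in exercised TME libraries 7, 8, 9 and 10. In sedentary mice it had 22.3 to 48.2 CPM (median 38.4) in cancer cells, against 113, 77.6, 56.9 and 87.7 CPM in TME libraries 4, 6, 9 and 10. The groups did not overlap in either treatment, and its fold change was -0.78 ± 0.18 in exercised mice (edgeR adjusted p = 0.000967) and -1.15 ± 0.17 in sedentary mice (8.5e-06).

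Ndufs7, an iron-sulfur subunit next to the ubiquinone site, had 13.8 to 21.2 CPM (median 17.7) in exercised cancer cells, against 51.2, 35.5, 26.6 and 30.5 CPM in exercised TME cells. Its fold change was -1.01 ± 0.17 there (edgeR adjusted p = 3.9e-05) and -1.02 in sedentary mice. Ndufa3 differed by -0.97 ± 0.18 in exercised mice (adjusted p = 0.000128). Ndufv2, an iron-sulfur subunit of the NADH-oxidising module, had 65.3 to 93.9 CPM (median 79.5) in sedentary cancer cells, against 156.5, 123.7, 100.02 and 122.5 CPM in sedentary TME cells, without overlap (-0.70 ± 0.11, adjusted p = 1.2e-05).

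The membrane arm subunit Ndufb3 showed the lowest value of complex I in sedentary mice, at -1.20. Ndufv1 was lower by -0.30 ± 0.11 in exercised and -0.48 ± 0.11 in sedentary mice (edgeR adjusted p = 0.032 and 0.000659), but its sign turned under the uncentred offset in both treatments and under block with offset in exercised mice. The call in exercised mice was also lost without TME library 7 or cancer library 1, 2, 4 or 5. Ndufb2 was the member of complex I called higher, in sedentary mice (0.45 ± 0.16, edgeR adjusted p = 0.0296), with overlapping groups, and the call was lost with either length and GC offset, without TME library 9 or 10 and without cancer library 6 or 9. The core subunit Ndufs1 was not called in either treatment, at 114 ± 7.94 CPM in cancer and 102 ± 9.94 in TME cells of exercised mice and 106 ± 20.7 in cancer and 99.8 ± 8.56 in TME cells of sedentary mice.

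In complex II all 4 members lay below 0, with medians of -0.14 in exercised and -0.16 in sedentary mice. The membrane anchor Sdhc was called lower in sedentary mice (-0.33 ± 0.11, edgeR adjusted p = 0.0192 or, with limma voom, 0.0917), and not without TME library 4 (0.0575) or with the uncentred offset (0.193). Sdha averaged 137 ± 9.998 CPM in cancer and 145 ± 16.7 in TME cells of exercised mice, and 124 ± 10.7 in cancer and 134 ± 13.8 in TME cells of sedentary mice. The iron-sulfur subunit Sdhb averaged 150 ± 13.3 and 172 ± 29.5 CPM in cancer and TME cells of exercised mice, and Sdhd 127 ± 12.3 and 133 ± 22.7.

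In complex III the core subunit Uqcrc2 went against the small subunits. Uqcrc2 (chr7:120635176-120659524, plus strand) had 88.7 to 130 CPM (median 110) in exercised cancer cells, against 39.2, 66.7, 78.6 and 72.3 CPM in exercised TME libraries 7, 8, 9 and 10. In sedentary mice it had 85.4 to 150 CPM (median 100.1) in cancer cells, against 50.3, 42.5, 77.4 and 55.0 CPM in TME libraries 4, 6, 9 and 10. Neither treatment showed overlap, with fold changes of 0.80 ± 0.18 (edgeR adjusted p = 0.000808, or 0.0527 with block and offset) in exercised and 0.89 ± 0.18 (adjusted p = 0.000244) in sedentary mice.

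Uqcrc2 shares 19.7% of its exon bases with Pdzd9. The small subunits Uqcrb, Uqcrh and Uqcrq were lower in both treatments. Uqcrq differed by -0.72 ± 0.19 (edgeR adjusted p = 0.00336) and Uqcrh by -0.42 ± 0.13 (adjusted p = 0.0108) in exercised mice, and Uqcrb by -0.73 ± 0.14 (adjusted p = 0.000143) and Uqcrh by -0.55 ± 0.12 (adjusted p = 0.00076) in sedentary mice. With the block, Uqcrq (edgeR adjusted p = 0.0755) and Uqcrh (0.0685) no longer passed in exercised mice. Uqcrc1 and Uqcrfs1 were not called in either treatment, and Uqcrfs1 averaged 87.8 ± 11.8 CPM in cancer and 85.7 ± 16.9 in TME cells of exercised mice. In sedentary mice it averaged 92.5 ± 9.17 CPM in cancer and 76.8 ± 5.50 in TME cells (0.27 ± 0.11, edgeR adjusted p = 0.0564), with 7 of 8 cancer libraries above the TME mean.

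Complex IV had 4 of 10 tested members lower and 0 higher in exercised mice, and 3 lower and 1 higher in sedentary mice. Over all genes 17.3% were lower and 19.5% higher in exercised mice, and 19.8% lower and 21.0% higher in sedentary mice. Cox6b1, a subunit on the intermembrane side, had 68.1 to 81.2 CPM (median 75.1) in exercised cancer cells, against 134, 137, 105 and 103 CPM in exercised TME cells. In sedentary mice it had 56.8 to 105 CPM (median 81.6) in cancer cells, against 196, 129, 123 and 139 CPM in TME cells. Cox6b1 groups did not overlap in either treatment, with -0.66 ± 0.13 (edgeR adjusted p = 0.000296) in exercised and -0.84 ± 0.13 (adjusted p = 1.2e-05) in sedentary mice, and in exercised mice it was not called under the uncentred offset or block with offset.

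Other calls in complex IV were less even. Cox6a1 was lower by -0.48 ± 0.13 in sedentary mice (edgeR adjusted p = 0.00496) and by -0.36 ± 0.14 in exercised mice (0.0443), and was not called with the length and GC offset, at -0.04 in sedentary and -0.01 in exercised mice. In exercised mice its call was also lost without TME library 7 or 8 or cancer library 1, 2, 4 or 7. Cox8a was lower in exercised mice (-0.53 ± 0.15, adjusted p = 0.00591) and Cox5a in sedentary mice (-0.64), while Cox7b was higher in sedentary mice (0.40 ± 0.13, adjusted p = 0.0133), each with overlapping groups. Cox8a was not called with the offset (adjusted p = 0.252). The call of Cox5a was lost without sedentary TME library 4 (adjusted p = 0.0935), and that of Cox7b without sedentary TME library 9 or 10 (0.0621 and 0.0834).

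Cox7a1, the isoform of heart and skeletal muscle, had low levels of 0.318 to 0.672 CPM in exercised cancer cells, against 1.51, 1.20, 1.27 and 0.532 CPM in exercised TME libraries 7, 8, 9 and 10. Its fold change of -1.18 in exercised mice was called by edgeR, and not without TME library 7 (adjusted p = 0.0668) or with the block (0.519). The ubiquitous isoform Cox7a2 averaged 50.5 ± 12.3 CPM in cancer and 50.6 ± 9.74 in TME cells of exercised mice, and 54.9 ± 6.59 in cancer and 50.7 ± 7.49 in TME cells of sedentary mice. Per kilobase of exon, the ubiquitous genes stood at 312 (Cox6a1), 107 (Cox6b1), 50.1 (Cox7b) and 51.0 (Cox8a) CPM in exercised cancer cells, beside 0.034, 0.022, 0.14 and 0.15 for their muscle or testis isoforms Cox6a2, Cox6b2, Cox7b2 and Cox8b.

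Complex V was divided by subunit. The gamma subunit Atp5c1, the central shaft, had 456 to 496 CPM (median 485) in exercised cancer cells, against 287, 403, 410 and 328 CPM in exercised TME cells, without overlap. It was higher by 0.43 ± 0.11 (edgeR adjusted p = 0.00248) in exercised and by 0.42 ± 0.11 (adjusted p = 0.00225) in sedentary mice, where the groups overlapped by TME library 9. Without exercised TME library 7 or 10 the call in exercised mice was lost (adjusted p = 0.0778 and 0.0521), and in sedentary mice it was lost without TME library 6 (0.0517). Subunit b of the peripheral stalk, Atp5f1, was higher by 0.47 in exercised and 0.51 in sedentary mice. The call of Atp5f1 was lost in exercised mice without exercised TME library 7, 8 or 10 (edgeR adjusted p = 0.174, 0.0529 and 0.0963) and, through the shared fit, without sedentary TME library 4 or 10 (0.0524 and 0.0515), and in sedentary mice without TME library 4 or 6 (0.0632 and 0.0778).

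Atp5s, a member by its name, was higher as well, by 0.61 ± 0.13 (edgeR adjusted p = 0.000322) in exercised and 0.73 ± 0.12 (adjusted p = 3.8e-05) in sedentary mice. Lower members of complex V included the delta subunit Atp5d and the small membrane subunits Atp5j2 and Atp5k. Atp5d differed by -0.64 ± 0.13 (adjusted p = 0.00031) in exercised and -0.62 ± 0.13 (adjusted p = 0.000295) in sedentary mice, and Atp5j2 by -0.79 ± 0.19 in both (adjusted p = 0.00221 in exercised, 0.00164 in sedentary mice). With the offset the call of Atp5d was lost in sedentary mice (-0.19, adjusted p = 0.145), that of Atp5j2 without TME libraries 4 and 6 (0.0652), and that of Atp5k in sedentary mice without TME library 4 (0.0523). Atp5d did not overlap between the sorts in either treatment, at 35.5 to 53.7 CPM in cancer and 56.3 to 93.0 in TME cells of exercised mice.

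The beta and alpha subunits of ATP synthase were not called in either treatment. Atp5b (beta) averaged 833 ± 63.5 CPM in cancer and 753 ± 86.0 in TME cells of exercised mice, and 871 ± 108 in cancer and 745 ± 79.1 in TME cells of sedentary mice. Atp5a1 (alpha) averaged 236 ± 13.95 CPM in cancer and 260 ± 38.3 in TME cells of exercised mice. Of the genes that encode the same ring subunit, Atp5g3 had 569 ± 77.1 CPM in exercised cancer cells, 756 ± 247 in sedentary cancer cells, 561 ± 40.8 in exercised TME cells and 635 ± 89.1 in sedentary TME cells. Per kilobase of exon it had 261 CPM in exercised cancer cells, beside 3.74 for Atp5g1 and 11.2 for Atp5g2. The merged exon lengths that enter here were 2181 bp for Atp5g3, 4912 bp for Atp5g1 and 1675 bp for Atp5g2.

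**Figure D5:**
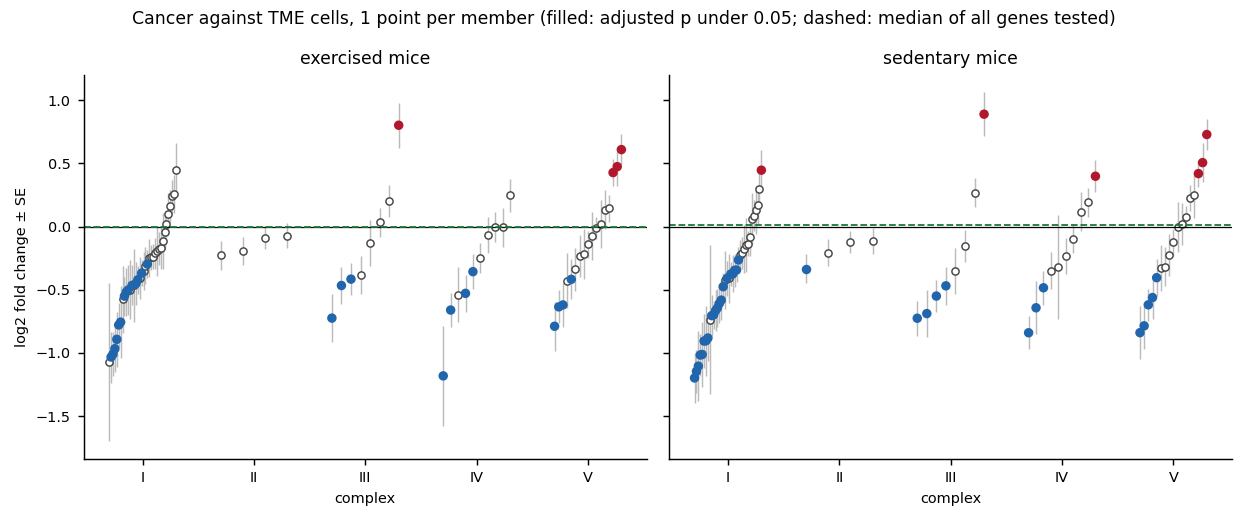
Log2 fold change of cancer against TME cells (± SE) of each tested member by complex, in exercised and in sedentary mice, with filled points for members called lower (blue) or higher (red) and a dashed line at the median of all genes tested. Uqcrc2 at 0.80 and 0.89 stands above the other members of complex III, and no member of complex II is beyond -0.33.

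Near-identical copies limit some of these values. Ndufa12, lower by -0.58 in sedentary mice, had 9922 counts over all libraries, while its pseudogene Gm15920, identical over 99.5% of the aligned bases, had 16687. Gm15920 averaged 28.0 ± 4.35 CPM in exercised and 21.2 ± 6.58 in sedentary cancer cells, and 38.0 ± 9.44 in exercised and 42.9 ± 8.06 in sedentary TME cells. Ndufs5 had 269 counts and its copy BC002163 1097, so the level of Ndufs5 is uncertain. In all, 17 members have at least 1 such copy of at least 95% identity over 200 bases or more, and 27 share exon bases with another gene.

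Of the companion genes outside the symbol pattern 6 of 11 were lower and 0 higher in cancer cells of exercised mice, and 5 lower and 0 higher in sedentary mice. The shares over all genes were 17.3% lower and 19.5% higher in exercised, and 19.8% lower and 21.0% higher in sedentary mice. Cox4i2, the isoform of complex IV subunit IV known from lung and induced by low oxygen, had 0.203 to 0.703 CPM in exercised cancer cells, against 2.47, 3.95, 5.84 and 2.09 CPM in exercised TME libraries 7, 8, 9 and 10. Its difference was -2.94 ± 0.45 (edgeR adjusted p = 8.9e-06) in exercised and -2.46 ± 0.45 (adjusted p = 7.9e-05) in sedentary mice. The ubiquitous Cox4i1 differed by -0.64 ± 0.13 (adjusted p = 0.000215) and -0.70 ± 0.12 (adjusted p = 5.4e-05), and the acyl carrier subunit Ndufab1 by -0.66 ± 0.14 (adjusted p = 0.000329) and -0.61 ± 0.13 (adjusted p = 0.000534).

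Cytochrome c1, Cyc1, was not called, at 76.4 ± 9.63 CPM in cancer and 63.4 ± 7.87 in TME cells of exercised mice, and 75.9 ± 9.39 in cancer and 68.2 ± 3.56 in TME cells of sedentary mice. The hypoxia-linked Ndufa4l2 averaged 0.12 ± 0.12 CPM in cancer and 0.71 ± 0.61 in TME cells of exercised mice, and 0.24 ± 0.26 in cancer and 0.60 ± 0.46 in TME cells of sedentary mice, levels of few counts per library. It was lower in cancer cells of exercised mice (edgeR adjusted p = 0.0224), not without TME library 7 (0.150) or with the block (0.222), and was not called in sedentary mice (0.252). Of 41 assembly factors 5 were lower and 4 higher in exercised mice and 6 lower and 8 higher in sedentary mice, beside 17.3% and 19.5%, and 19.8% and 21.0%, of all genes, with medians of 0.0080 and 0.08. The succinate dehydrogenase assembly factor Sdhaf3 was higher by 0.60 ± 0.13 in exercised (edgeR adjusted p = 0.000451) and 0.60 ± 0.13 in sedentary mice (0.000338), and the complex IV factor Cox14 was lower by -0.60 ± 0.16 (0.0045) and -0.84 ± 0.16 (0.000135). Pet100 was lower by -0.91 ± 0.23 (0.00285) in exercised mice and Cox19 higher by 0.39 ± 0.09 (0.000617) in sedentary mice.

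Of the regulators of mitochondrial genes 4 of 12 were higher and 1 lower in cancer cells of exercised mice and 5 higher and 3 lower in sedentary mice, beside the same shares of all genes. Hif1a, the oxygen-regulated transcription factor, was higher by 0.87 ± 0.11 (edgeR adjusted p = 5.8e-07) in exercised and 0.90 ± 0.11 (adjusted p = 4.2e-07) in sedentary mice. Yy1 was higher by 0.60 ± 0.10 (adjusted p = 4.6e-05) and 0.80 ± 0.10 (adjusted p = 1e-06), and Gabpa, the DNA-binding part of GABP, by 0.49 ± 0.14 (adjusted p = 0.00715) and 0.70 ± 0.14 (adjusted p = 0.000229). Esrra was lower by -0.60 ± 0.19 (adjusted p = 0.0133) and -0.53 ± 0.19 (adjusted p = 0.0261). Nrf1 averaged 28.0 ± 1.36 CPM in cancer and 28.3 ± 1.29 in TME cells of exercised mice and was not called, nor was Tfam, and Ppargc1a had group means of at most 0.25 CPM.

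The subunits encoded by mitochondrial DNA were also lower in cancer cells, with 4 of 13 called in exercised and 13 of 13 in sedentary mice. Beside these stand 17.3% and 19.8% of all genes called lower. The subunits summed to 571540, 121682, 25296 and 48417 CPM in sedentary TME libraries 4, 6, 9 and 10, so libraries 4 and 6 were highest. mt-Co2 differed by -2.33 ± 0.56 (edgeR adjusted p = 0.00256) and -4.82 ± 0.57 (adjusted p = 2e-06), and without sedentary TME libraries 4 and 6 mt-Nd4l no longer passed in sedentary mice (adjusted p = 0.146). In exercised against sedentary cells, edgeR, limma voom and edgeR with no filter called 0 of the companion genes, assembly factors, regulators and mitochondrially encoded subunits in either sort, and DESeq2 called 1, Cox7a2l, in cancer cells. At an unadjusted p under 0.05, 5 of 10 companion genes and 5 of 41 assembly factors were lower and 0 higher in cancer cells, beside 6.67% of all genes lower and 5.92% higher. In TME cells 1 of 41 assembly factors was higher, and 1 assembly factor, 1 of 12 regulators and 1 of 13 mitochondrially encoded subunits were lower, beside 3.51% of all genes lower and 4.93% higher.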

How the data were processed

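Gene counts of 23 polyA RNA libraries were used as the authors deposited them. STAR, featureCounts and the build mm10 are named per the submitters' processing notes, and the sources used here give no version, annotation or strand setting. Libraries were built with a kit for mRNA after Trizol extraction, per the labels' protocols.

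Counts were filtered with filterByExpr, scaled by TMM and tested with edgeR 4.0.16 in R 4.3.3 (robust quasi-likelihood test, two-sided, Benjamini-Hochberg over all genes tested, threshold 0.05). Exercise was tested within the 15 cancer and the 8 TME libraries, and the other contrasts in 1 fit of 4 groups. Errors are SE for fold changes and SD for levels, and log2 CPM has a prior count of 2. DESeq2 1.42.0 and limma 3.58.1 (voom with quality weights) were alternatives, with other scalings and filters, a spline offset for length and GC content, a replicate block and leaving out each library. Members and lists were chosen with earlier results of these data known. Where a comparison gave calls, the text names the 2 of smallest p in each complex and direction (all, if at most 10), otherwise the 2 of smallest p in each complex, and a fixed set throughout. Others were named after their values were seen, among them the printed promoters and members whose groups did not overlap.

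Same-numbered exercised cancer and TME libraries deviated together (r = 0.144, 0.243 and 0.178 for numbers 7, 8 and 10). In sedentary mice the values were -0.060, 0.015, 0.027 and 0.050 for numbers 4, 6, 9 and 10. Exercised and sedentary TME libraries numbered 9, from mice of different treatments, reached 0.235. Pairing by number is therefore not established, and the labels do not give it. No pair of libraries agreed within sampling noise. On simulated data of 15096 genes in cancer cells, the test recovered 100% of log2 changes of 1 and 68% of 0.5. With 16273 genes in TME cells it recovered 65% and 8%. Each size was set in 100 genes, all above a minimum level, in counts drawn independently from the fitted model. These shares therefore hold for that setting and are not the power for genes of low level or for the members.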

Additional observations from a re-analysis of the deposited data

Results flagged for a closer look

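Of 188 groups of 4 to 10 libraries, 8 held a library whose gap to its neighbours was large against the group's range, where chance gives about 1 in 20 groups. Exercised cancer library 10 was high in Atp5g2 (26.4 CPM, next 19.5) and Cox5a (38.8, next 26.5) and low in Ndufs1 (97.0, next 115). Sedentary cancer library 5 was high in Atp5g2 (36.0 CPM, next 24.0) and low in Ndufs1 (60.0, next 103). Sedentary cancer library 4 was high in Uqcrc2 (150 CPM, next 114). Sedentary TME library 10 was high in Ndufa12 (31.1 CPM, next 22.0), and sedentary TME library 6 was low in the mean log2 CPM of complex II (6.80, next 7.06).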

How the results depend on the processing

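In exercised against sedentary cancer cells DESeq2 called 3 members lower, limma voom 1 and edgeR with no filter 1. For the difference between sorts, 1 member was called with replicate block and offset. In exercised mice 14 members were lower in cancer cells with the length and GC offset, 11 with the replicate block and 6 with both, and 2 to 4 were higher when each library was left out in turn. In sedentary mice 21 were lower with the offset (median -0.17), 20 with block and offset, and 22 without TME libraries 4 and 6. The offset was centred in each library after its uncentred form had been seen. That form, an alternative added after seeing the data, gave 5 lower and 22 higher in exercised mice (median 0.090) and 16 lower and 15 higher in sedentary mice (median -0.029). The cause was not tested. With mitochondrial genes removed before scaling, exercised cancer cells had mean log2 CPM of 6.94 for complex II and 6.31 for complex V.

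Signs turned for Sdha in TME cells (uncentred -0.0043, without libraries 4 and 6 -0.0084), for the difference of Sdhc (voom -0.048) and of Sdhd (voom -0.045, mitochondrial genes removed -0.0037, no filter -0.014, libraries left out -0.077 to 0.085). Uncentred, Cox6a1 had 0.11 in sedentary and 0.19 in exercised mice and Ndufv1 0.020 and 0.17, and with block and offset in exercised mice they had 0.12 and 0.050. The block changed no other count of members called by over 1.5 times. Uncalled genes given by levels only were left out of this comparison, which was decided after seeing the data.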
